A study of Mus musculus with 8 samples.

Results

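Cardiolipin is the signature phospholipid of the mitochondrial inner membrane, where it binds respiratory chain complexes and helps to hold the cristae folds that carry the membrane potential. It is built inside mitochondria from phosphatidic acid that is carried in from the outer membrane, turned into CDP-diacylglycerol and then phosphatidylglycerol, joined into cardiolipin, and finally remodelled by exchange of its acyl chains. Phosphatidylethanolamine, the other phospholipid made in the inner membrane, comes from decarboxylation of phosphatidylserine. The genes described here are 10 genes of these steps, chosen by symbol for their roles: Tamm41, Pgs1, Ptpmt1 and Crls1 (synthesis), Prelid1 and Triap1 (transport), Taz, Lclat1 and Hadha (remodelling) and Pisd (phosphatidylethanolamine). All 10 were found on the array, each with a single probe set, among 19505 genes with a symbol. The symbol Taz stands for tafazzin here, as its Entrez ID shows, and not for the Hippo pathway coactivator of the same alias.

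Splenic cDC1, the type of conventional dendritic cell that cross-presents antigen to CD8 T cells, were sorted from naive wild-type C57BL/6 mice into a TMRM/MG-high fraction (4 arrays) and a TMRM/MG-low fraction (4 arrays). TMRM is a dye drawn into mitochondria by the potential across their membrane. The labels leave MG unexplained and give neither age nor the number of animals behind an array. No label says that the replicates came from separate mice, so p-values measure only how these samples spread, and that spread may be technical. Values are log2 RMA signals, in which the probe signals of each array were given the same distribution before summary into probe sets. A difference is therefore relative to the other transcripts and not per cell. The tested probe sets did not have exactly the same distribution on each array, with array medians of 8.11 to 8.16. In such bulk samples, fewer cells of a type and less RNA per cell cannot be told apart.

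Over all 22206 probe sets tested with limma, 1173 were higher and 658 lower in TMRM/MG-high cells (852 and 858 after quantile normalization of the tested probe sets). A call means a Benjamini-Hochberg adjusted p under 0.05 over all of them, and every adjusted p given for a single gene is from that limma test. The cDC1 markers, among them Xcr1, Clec9a, Batf3 and Irf8, averaged 11.61 to 11.76 in high arrays and 11.53 to 11.82 in low arrays, and limma called 0 of 10 (2 higher and 1 lower at an unadjusted p under 0.05). Other signals moved with the fractions. Of 13 plasmacytoid dendritic cell markers, 11 were higher (list mean 9.95 to 10.38 in high arrays and 9.23 to 9.41 in low arrays), 3 of 8 T and NK cell markers were lower (8.91 to 9.51 against 9.29 to 10.19), and 1 of 5 neutrophil markers was lower (8.81 to 9.68 against 9.75 to 10.39). With limma at an unadjusted p under 0.05, 12 of the plasmacytoid dendritic cell markers were higher and 0 lower. Of the T and NK cell markers 7 were lower and 0 higher, and of the neutrophil markers 4 were lower and 0 higher. At that unadjusted p, 3407 of all 22206 probe sets were higher and 2246 lower. None of the measured genes of these 3 lists lay below the median negative control in both fractions. In the remaining marker lists, limma called 0 of 8 cDC2, 0 of 4 B cell, 0 of 6 red pulp macrophage and 0 of 2 erythroid markers. Among these, 1 cDC2 marker was lower at an unadjusted p under 0.05. The mean level of the 4 poly-A spike-in RNAs, which are added to the sample before labelling, was 6.32 ± 0.44 in high arrays and 7.55 ± 0.28 in low arrays (SD, n = 4 each). The part of the marker lists in the differences below was not tested, and the spike-in level was fitted as a covariate. That level was 5.99 to 6.96 in high arrays and 7.27 to 7.85 in low arrays, without overlap. A fit with this covariate therefore cannot tell the spike-in level apart from the fraction. The hybridization controls, which are added after labelling, were lower in high arrays as well, from bioB (mean 10.11 in high arrays and 11.08 in low arrays) to cre (13.54 in high arrays and 13.87 in low arrays).

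Promoters of 9 of the 10 genes (11 start sites) were read from the RefSeq table of build GRCm38.p6 as the 250 bases before the annotated start, 5′ to 3′ on the gene's strand. Of these, 4 are shown: those of the genes called higher, Crls1 (the first of its listed starts) and Ptpmt1, that of Prelid1, a gene with a narrow spread and no call, and that of Hadha, which lies wholly between the starts of Hadha and its partner subunit gene Hadhb. Capitals mark matches to the motifs searched.
Ptpmt1 (chr2:90918051-90918300, minus strand): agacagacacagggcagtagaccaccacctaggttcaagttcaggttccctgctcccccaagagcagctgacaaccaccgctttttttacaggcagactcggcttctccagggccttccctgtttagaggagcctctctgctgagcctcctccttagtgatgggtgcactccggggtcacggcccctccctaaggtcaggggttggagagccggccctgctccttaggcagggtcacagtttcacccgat
Crls1 (chr2:132846416-132846665, plus strand): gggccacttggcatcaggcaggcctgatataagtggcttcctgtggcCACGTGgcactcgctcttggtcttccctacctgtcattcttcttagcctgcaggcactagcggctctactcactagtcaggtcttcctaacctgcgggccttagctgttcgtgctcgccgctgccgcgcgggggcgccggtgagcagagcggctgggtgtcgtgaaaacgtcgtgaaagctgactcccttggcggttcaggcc
Prelid1 (chr13:55321805-55322054, plus strand): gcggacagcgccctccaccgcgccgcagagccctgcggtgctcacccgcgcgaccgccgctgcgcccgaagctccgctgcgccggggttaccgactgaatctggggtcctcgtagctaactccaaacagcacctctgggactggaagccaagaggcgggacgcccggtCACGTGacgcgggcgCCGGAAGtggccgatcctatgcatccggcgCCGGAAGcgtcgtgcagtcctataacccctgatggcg
Hadha (chr5:30154981-30155230, minus strand): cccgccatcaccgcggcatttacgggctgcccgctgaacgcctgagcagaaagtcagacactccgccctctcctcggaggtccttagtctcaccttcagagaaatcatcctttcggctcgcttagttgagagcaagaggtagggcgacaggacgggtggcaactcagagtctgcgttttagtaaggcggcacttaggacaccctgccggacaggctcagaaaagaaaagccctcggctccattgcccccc
The motifs were searched on both strands over 32851 promoter windows of the same length. They were TGCGCA (from the NRF1 site, in 6.43% of windows), CCGGAAG (the ETS family, 6.91%), AAGATGG (YY1, 4.49%), CCAAT (33.8%), CACGTG (a form of the E-box, 6.02%) and TCACCCC (from the sterol response element, 4.31%). Other forms of the E-box were not searched, and E-box below means CACGTG. In the members no match overlapped another. The Prelid1 window held CCGGAAG beginning 67 and 37 bases before the start and an E-box at 82, and the Crls1 window held an E-box at 203. The Ptpmt1 and Hadha windows held none of these letters, so the 2 genes called higher shared no motif of this search. Of the windows not shown, that of Triap1 held TCACCCC and that of the second start of Pisd an ETS and a CCAAT match, each on the opposite strand. Windows of the members had a GC content of 42.4% to 69.6%, against a median of 52.4% over all windows.

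Of the 10 genes, 2 were called higher in TMRM/MG-high cells, Ptpmt1 and Crls1, and 0 were called lower, beside 5.28% of all probe sets called higher and 2.96% called lower. At an unadjusted p under 0.05, limma gave 5 higher and 1 lower, beside 3407 higher and 2246 lower of all 22206 probe sets. The median log2 difference of the 10 genes was 0.17, against 0.0093 over all probe sets tested. The exon controls differed by about as much as the 10 genes (0.16, high minus low), with array medians of 10.38 to 10.49 in high arrays and 10.21 to 10.37 in low arrays, and the median negative control differed by 0.096 (mean 6.86 in high arrays and 6.76 in low arrays). The part of these shifts in the results was not tested. In 6 of the 10 the 4 high arrays all lay above the 4 low arrays, beside 9.7% of all probe sets, and none lay wholly below, beside 6.37%. Every gene was above the median negative control on all 8 arrays. With dim probe sets left out, 1372 of the 16530 kept were called higher and 717 lower, and of the 10 genes 4 and 0.

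**Figure D1:**
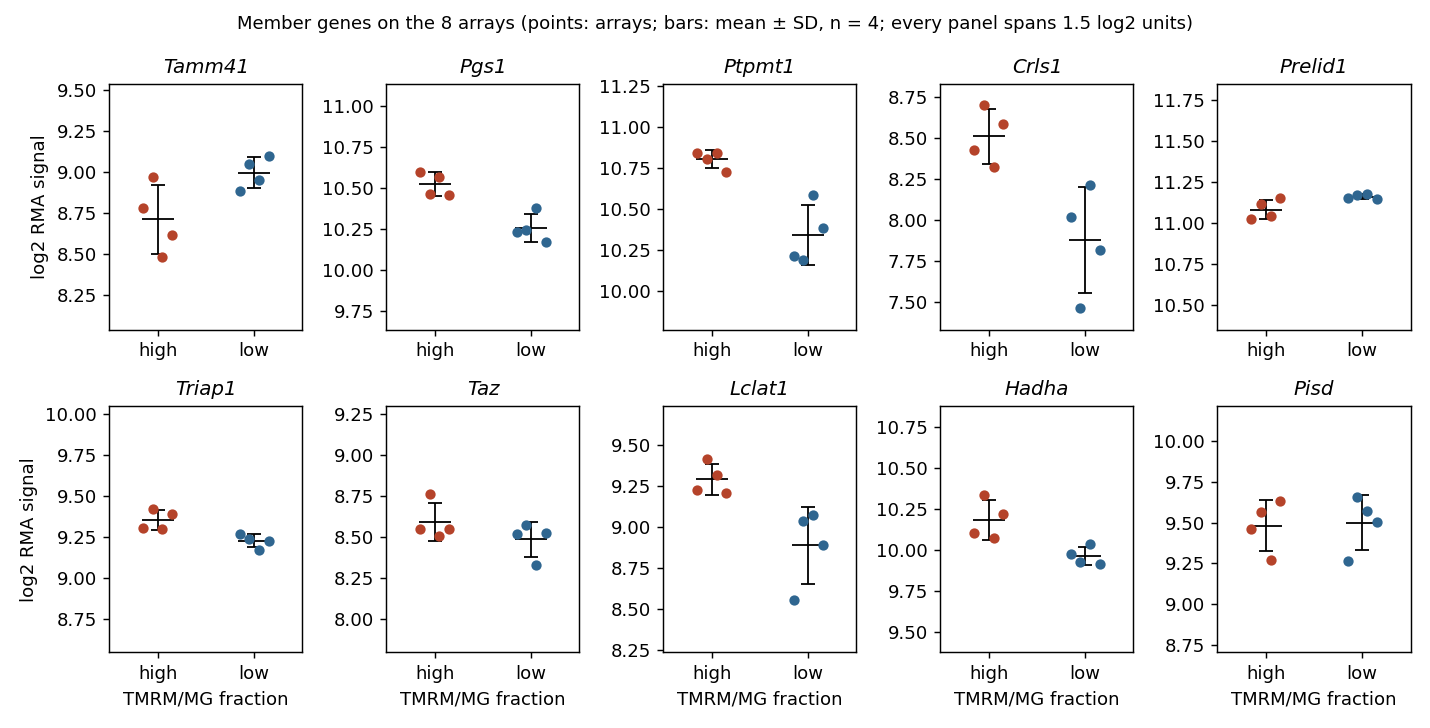
Log2 RMA signal (vertical axis) of the 10 genes in the TMRM/MG-high and TMRM/MG-low fractions, with a point for each array and bars for the mean ± SD (n = 4). High points stand above all low points for Pgs1, Ptpmt1, Crls1, Triap1, Lclat1 and Hadha, and the fractions overlap for Tamm41, Prelid1, Taz and Pisd.

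Of the 4 enzymes of the synthesis route, the phosphatase and the synthase of its last steps were called higher in TMRM/MG-high cells. Of its first steps, Pgs1 also had a positive difference and Tamm41 a negative one, and neither was called. Crls1, cardiolipin synthase, which joins phosphatidylglycerol with CDP-diacylglycerol to give cardiolipin, had a signal of 8.43, 8.70, 8.32 and 8.59 in the high arrays, against 8.02, 7.46, 8.21 and 7.82 in the low arrays. All high arrays were above all low arrays, but high replicate 3 and low replicate 3 were only slightly apart, and low replicate 2 was the lowest. The log2 difference of Crls1, high minus low, was 0.63 (SE 0.15, 95% interval 0.31 to 0.95, limma adjusted p = 0.0263), a 1.55-fold higher signal, and the largest of the 10. Ptpmt1, the mitochondrial phosphatase that turns phosphatidylglycerol phosphate into phosphatidylglycerol, was at 10.84, 10.81, 10.84 and 10.73 in the high arrays and at 10.21, 10.19, 10.59 and 10.39 in the low arrays. The high arrays lay close together (SD 0.054), and low replicate 3 came nearest to them. Its log2 difference was 0.46 (SE 0.098, 95% interval 0.25 to 0.68, adjusted p = 0.0198), a 1.38-fold higher signal.

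Pgs1, which makes phosphatidylglycerol phosphate and commits CDP-diacylglycerol to this route, was at 10.60, 10.46, 10.57 and 10.46 in the high arrays and at 10.23, 10.24, 10.38 and 10.18 in the low arrays. The fractions did not overlap, yet the log2 difference of 0.27 (SE 0.082, 95% interval 0.090 to 0.45) missed the threshold (adjusted p = 0.0645). Tamm41, the CDP-diacylglycerol synthase of the mitochondrial matrix, was at 8.78, 8.97, 8.48 and 8.62 in the high arrays and at 8.88, 9.05, 8.96 and 9.10 in the low arrays. High replicate 2 reached into the range of the low arrays, and the other high arrays lay below it. The log2 difference of Tamm41 was -0.28 (SE 0.11, 95% interval -0.52 to -0.047) and was not called (adjusted p = 0.128).

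Neither call among the synthesis genes survived every omission of an array. Ptpmt1 was no longer called without high replicate 2 (log2 difference 0.46, adjusted p = 0.0597), high replicate 3 (0.45, 0.0633), low replicate 1 (0.42, 0.0555) or low replicate 2 (0.41, 0.0536). Crls1 lost its call without high replicate 2 (0.57, adjusted p = 0.0819), high replicate 3 (0.70, 0.0505), high replicate 4 (0.61, 0.0657), low replicate 2 (0.49, 0.0533) or low replicate 4 (0.61, 0.0624). Without low replicate 3, Pgs1 was called too (0.31, adjusted p = 0.0403). With the poly-A spike-in level as a covariate, limma called 0 of all probe sets (504 higher and 628 lower at an unadjusted p under 0.05). The log2 difference of Crls1 was then 0.32 (95% interval -0.38 to 1.02) and that of Ptpmt1 was 0.28 (-0.19 to 0.75). Both differences were smaller and their intervals wider than without the covariate. The spike-in level separated the fractions, so its part and that of the fraction cannot be told apart in these values or in the lost calls.

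**Figure D2:**
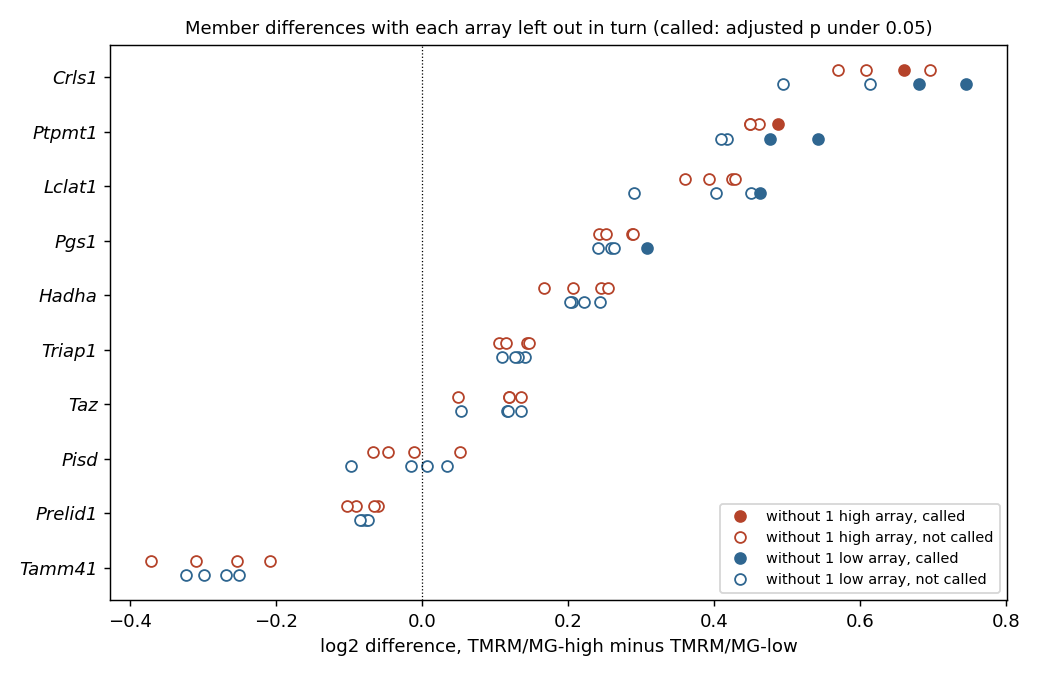
Log2 difference, TMRM/MG-high minus TMRM/MG-low (horizontal axis), of each gene when 1 array is left out, with filled points for an adjusted p under 0.05, red for omitted high arrays and blue for omitted low arrays. Crls1 stays between 0.49 and 0.75 and Ptpmt1 between 0.41 and 0.54, with 3 and 4 of the 8 omissions called, and Pisd lies on both sides of 0.

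**Figure D3:**
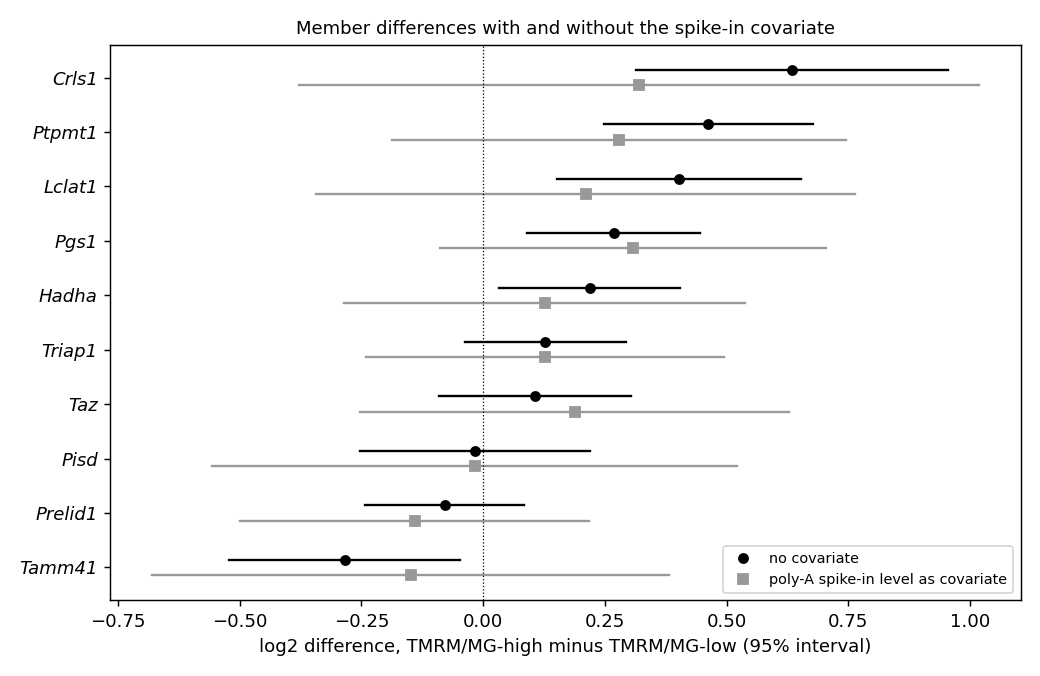
Log2 difference, TMRM/MG-high minus TMRM/MG-low, with its 95% interval for each gene, without a covariate (black circles) and with the poly-A spike-in level as a covariate (grey squares). With the covariate the interval of each of the 10 genes includes 0, and the values of Crls1 and Ptpmt1 are 0.32 and 0.28. The covariate itself separates the fractions, so its part and that of the fraction cannot be told apart.

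Prelid1 and Triap1 encode partners of a complex that carries phosphatidic acid across the intermembrane space to the inner membrane, the step that feeds cardiolipin synthesis. Neither was called. Prelid1 was at 11.02, 11.12, 11.04 and 11.15 in the high arrays and at 11.16, 11.17, 11.18 and 11.15 in the low arrays, and the fractions overlapped by 1 high array. Its log2 difference was -0.079 (SE 0.075, 95% interval -0.24 to 0.083, adjusted p = 0.553). Triap1, which is also known as a p53-induced survival factor, was at 9.31, 9.42, 9.30 and 9.39 in the high arrays and at 9.27, 9.24, 9.17 and 9.23 in the low arrays. Its high arrays were all above the low ones, by a small margin, with a log2 difference of 0.13 (SE 0.076, 95% interval -0.038 to 0.29, adjusted p = 0.322).

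The signal of Prelid1 minus that of Triap1 on the same array was 1.73 ± 0.028 in the high arrays and 1.94 ± 0.051 in low arrays (SD, n = 4 each), a change of -0.21 on the log2 scale. The 2 sets of arrays did not overlap. This is the first of 3 pairs set side by side in this way. They were chosen with the values known, so their differences are a description and were not tested.

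Among the remodelling genes, Lclat1 had the largest difference and none was called. Lclat1, an acyltransferase of the endoplasmic reticulum and its contacts with mitochondria that adds acyl chains to lysocardiolipin, was at 9.22, 9.42, 9.32 and 9.21 in the high arrays and at 8.56, 9.03, 9.07 and 8.89 in the low arrays. Low replicate 1 was well below the other low arrays, and all low arrays were below the high ones. The log2 difference of 0.40 (SE 0.11, 95% interval 0.15 to 0.65) lay just outside the threshold (adjusted p = 0.0521). Leaving out low replicate 3 brought a call (0.46, adjusted p = 0.0322), and leaving out low replicate 1 gave 0.29 (adjusted p = 0.106). Taz, the transacylase tafazzin whose loss in humans causes Barth syndrome, was at 8.55, 8.76, 8.51 and 8.55 in the high arrays and at 8.52, 8.57, 8.33 and 8.52 in the low arrays. The fractions overlapped, with high replicate 2 and low replicate 3 at the ends, and the log2 difference was 0.11 (SE 0.090, 95% interval -0.091 to 0.30, adjusted p = 0.507).

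Hadha encodes the alpha subunit of the mitochondrial trifunctional protein of fatty acid oxidation, which has also been described in human cells as an acyltransferase for monolysocardiolipin. Hadha was at 10.10, 10.34, 10.07 and 10.22 in the high arrays and at 9.98, 9.93, 10.04 and 9.92 in the low arrays, without overlap. The log2 difference was 0.22 (SE 0.085, 95% interval 0.032 to 0.40) and not called (adjusted p = 0.136). Hadhb, the beta subunit of the same protein, starts 273 bases from Hadha on the opposite strand, so that the Hadha promoter printed above lies between the starts of both genes. It was at 10.84, 10.92, 11.04 and 10.98 in the high arrays and at 10.30, 10.45, 10.58 and 10.46 in the low arrays, and was called higher (log2 difference 0.50, SE 0.087, adjusted p = 0.0104). Hadha minus Hadhb was -0.76 ± 0.16 in high arrays and -0.48 ± 0.10 in low arrays (SD, n = 4 each), a change of -0.28, which was not tested. After quantile normalization of the tested probe sets the log2 differences were 0.14 for Hadha, 0.084 for Triap1, -0.16 for Prelid1 and -0.067 for Pisd, none of them called.

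Rab24, Gatc and Dnase1l1 also start head to head with a member, and none was called. Rab24, a small GTPase linked to autophagy, starts 75 bases from Prelid1 and differed by -0.020 (SE 0.083, adjusted p = 0.911). Gatc, a subunit of the mitochondrial amidotransferase that makes glutaminyl-tRNA, starts 70 bases from Triap1 and differed by 0.14 (SE 0.096, adjusted p = 0.393). Dnase1l1, a relative of DNase I, starts 385 bases from Taz and differed by 0.11 (SE 0.12, adjusted p = 0.588).

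Pisd, the phosphatidylserine decarboxylase that makes phosphatidylethanolamine in the inner membrane, had the smallest difference of the 10 genes. It was at 9.46, 9.57, 9.27 and 9.63 in the high arrays and at 9.26, 9.65, 9.57 and 9.51 in the low arrays, so the ranges of the fractions nearly coincided. The log2 difference was -0.018 (SE 0.11, 95% interval -0.25 to 0.22, adjusted p = 0.941), and it turned positive without high replicate 3 (0.053), low replicate 2 (0.034) or low replicate 3 (0.0068). Its transcribed pseudogene Pisd-ps3, the only annotated copy with a named probe set here, was lower in TMRM/MG-high cells. Pisd-ps3 was at 10.20, 10.11, 10.22 and 10.59 in the high arrays and at 11.04, 10.97, 10.90 and 11.15 in the low arrays, with a log2 difference of -0.74 (SE 0.11, adjusted p = 0.00552). The call of Pisd-ps3 was kept without any one of the 8 arrays. Pisd minus Pisd-ps3 was -0.80 ± 0.20 in high arrays and -1.52 ± 0.23 in low arrays (SD, n = 4 each), a change of 0.72, which was not tested. The probe sequences were not used here, and since near-identical copies can share probes, both values are uncertain to that extent.

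**Figure D4:**
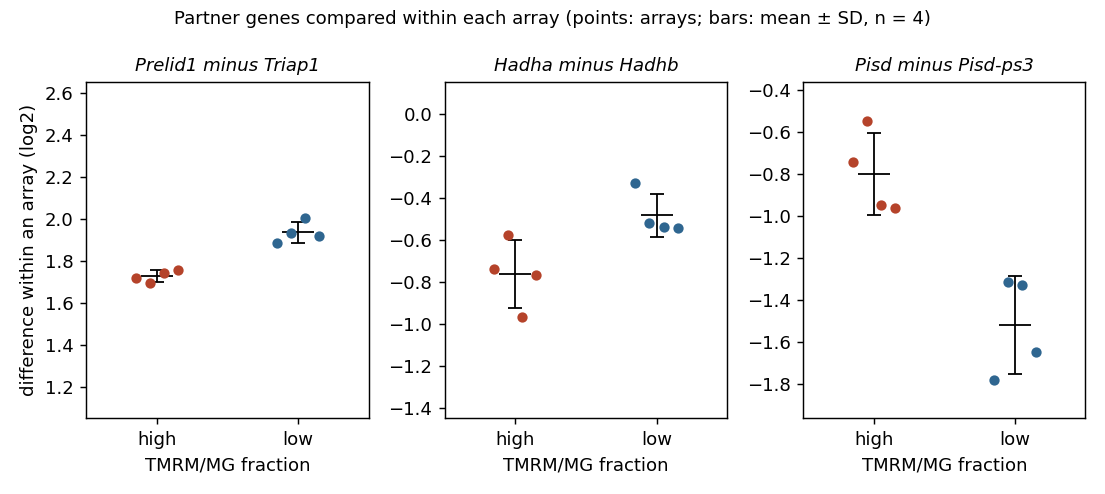
Difference within an array (log2, vertical axis) of Prelid1 minus Triap1, Hadha minus Hadhb and Pisd minus Pisd-ps3, with a point for each array and bars for the mean ± SD (n = 4), the TMRM/MG-high fraction left of TMRM/MG-low. The fractions do not overlap in any panel, with means of 1.73 and 1.94, -0.76 and -0.48, and -0.80 and -1.52.

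Around these genes, 47 further phospholipid genes in 4 lists were measured, of 49 listed. Of them 9 were called higher and 2 lower, with a median log2 difference of 0.094, against 5.28% and 2.96% of all probe sets called. At an unadjusted p under 0.05 with limma, 14 were higher and 5 lower, beside 3407 and 2246 of all 22206 probe sets. These shares are also the background for the single lists below. Of the 11 calls, those of Stoml2, Hadhb, Prelid2 and Vps13c were kept without any one of the 8 arrays. The other 7 calls were each lost in at least 1 omission, that of Cds1 only without high replicate 2 (adjusted p = 0.0534) and that of Lpin1 in 7 of the 8. After quantile normalization of the tested probe sets 6 were called higher, without Gpat4 (adjusted p = 0.0695), Agpat5 (0.0509) and Hsd17b10 (0.0585), and after median centring 7 were, without Gpat4 (0.0549) and Hsd17b10 (0.0508). With the poly-A spike-in level as a covariate none was called. The log2 difference was then nearer to 0 for Hsd17b10 (0.050), Agpat5 (0.16), Vps13a (0.18), Gpat4 (0.24), Hadhb (0.25) and Stoml2 (0.48). It was further from 0 for Lpin1 (-0.34), Selenoi (0.39), Prelid2 (0.63), Cds1 (0.74) and Vps13c (-1.09). The 95% intervals of Cds1, Prelid2 and Vps13c excluded 0, and those of the other called genes included it. This fit cannot tell the spike-in level apart from the fraction, as stated above.

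Supply of phosphatidic acid and CDP-diacylglycerol had 3 of 16 genes higher and 1 lower (median 0.085). Cds1, a CDP-diacylglycerol synthase of the endoplasmic reticulum, was at 7.63 to 7.87 in high arrays and 6.89 to 7.50 in low arrays, with a log2 difference of 0.63 (SE 0.12, adjusted p = 0.0152). This is the opposite sign to Tamm41, which makes the same lipid inside mitochondria and was not called. Agpat5, which acylates lysophosphatidic acid in mitochondria, was higher by 0.51 (SE 0.13, adjusted p = 0.0393), although low replicate 3 (9.14) overlapped high replicate 1 (9.08). Gpat4, a glycerol-3-phosphate acyltransferase of the endoplasmic reticulum, was higher by 0.34 (SE 0.090, adjusted p = 0.0392). Lpin1, the phosphatidate phosphatase lipin 1, which draws phosphatidic acid off to diacylglycerol, was lower, with a log2 difference of -0.31 (SE 0.079, adjusted p = 0.0354), and was not called with the replicate number as a block (adjusted p = 0.0564).

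Synthesis of phosphatidylserine, phosphatidylethanolamine and phosphatidylcholine had 1 of 12 measured genes higher and 0 lower (3 and 2 at an unadjusted p under 0.05 with limma, median 0.037). The gene was Selenoi, the ethanolamine phosphotransferase of the endoplasmic reticulum route, at 9.70 to 9.93 in high arrays and 9.37 to 9.51 in low arrays (log2 difference 0.36, SE 0.083, adjusted p = 0.0264). Etnk1, the ethanolamine kinase at the head of that route, differed by 0.29 (SE 0.099, adjusted p = 0.0901).

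Lipid transfer had 2 of 10 genes higher and 1 lower (median 0.32). Prelid2, of the same protein family as Prelid1, was at 9.09 to 9.35 in high arrays and 8.41 to 8.69 in low arrays, with a log2 difference of 0.57 (SE 0.096, adjusted p = 0.00924). The remaining family members Prelid3a (-0.082) and Prelid3b (-0.038) were not called. Of the VPS13 proteins, which form bridges for bulk lipid flow between organelles, Vps13a was higher by 0.47 (SE 0.10, adjusted p = 0.0201) and Vps13c lower, with a log2 difference of -0.63 (SE 0.12, adjusted p = 0.0152). Vps13d had a log2 difference of 0.35 with all high arrays above all low arrays, and was not called (adjusted p = 0.0562). Vps13c was at 8.72 to 9.39 in high arrays and 9.64 to 9.83 in low arrays.

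Remodelling, turnover and binding of cardiolipin had 3 of 9 measured genes higher and 0 lower (3 and 1 at an unadjusted p under 0.05 with limma, median 0.094). The largest difference of all the phospholipid genes was that of Stoml2, an inner membrane scaffold protein that binds cardiolipin, at 10.12 to 10.34 in high arrays and 9.12 to 9.69 in low arrays (0.87, SE 0.12, adjusted p = 0.0034). Hsd17b10, a dehydrogenase of the mitochondrial matrix that is also part of mitochondrial RNase P, was higher by 0.36 (SE 0.095, adjusted p = 0.039). Hadhb, described above with Hadha, was the third.

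**Figure D5:**
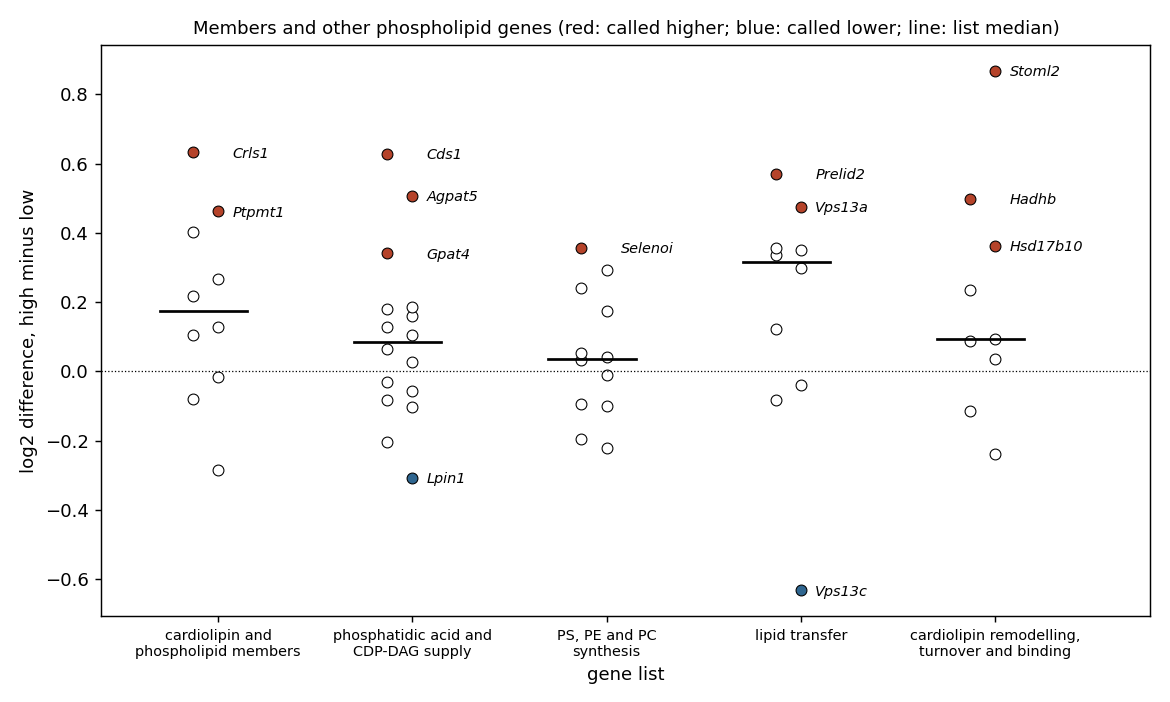
Log2 difference, TMRM/MG-high minus TMRM/MG-low (vertical axis), of each measured gene in the 10 member genes and the 4 other lists, red where called higher, blue where called lower and open otherwise, with a line at each list's median. List medians run from 0.037 to 0.32, and the ends of the range are Stoml2 (0.87) and Vps13c (-0.63).

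Profiles over the 8 arrays, centred on their own mean, were compared by root mean square difference, as a description in which all genes share the same arrays. Closest to Crls1 were Klhl9 (0.073 log2 units), the V-ATPase subunit gene Atp6v1c1 (0.080) and S100a1 (0.093), whose own log2 differences were 0.60, 0.61 and 0.68. Closest to Ptpmt1 were Dctn3, a dynactin subunit gene (0.046), Cd36, a fatty acid and scavenger receptor gene (0.055), and Dapp1 (0.056), with log2 differences of 0.45, 0.37 and 0.37.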

How the data were processed

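Gene expression was measured on 8 Affymetrix whole-transcript arrays, 4 of TMRM/MG-high and 4 of TMRM/MG-low cDC1. The deposited values are log2 signals made by the authors with RMA in Affymetrix Expression Console 1.1, per the submitters' processing notes. RMA removes shifts shared by most transcripts. The array's genome build is not stated in those notes or the labels. From 28846 rows, 6640 that hold controls were removed. Of the 22206 tested, 19572 had 1 gene symbol, 2634 none and 0 several, and all symbols matched RefSeq (GRCm38.p6) by Entrez ID. A gene with several probe sets entered with that of highest mean. The fractions were compared, high minus low, with limma 3.58.1 (lmFit, then eBayes; R 4.3.3), two-sided and without a block, with no filter on low values, and the procedure was tested on simulated data. Etnk2 and Pnpla8 are not analysed here. Figures used matplotlib 3.10.9.

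The members and lists were chosen with earlier results of these data known. The text names all 10 members, the called genes of the other lists (filled up to 2 by smallest p), genes starting within 1000 bases of a member's start on the opposite strand, any named Pisd pseudogene, and the 3 profiles nearest to Crls1 and to the member of smallest p. Prelid3a, Prelid3b and Vps13d were added after their values were seen, as were the 3 within-array pairs. Alternatives were a block for the replicate number, median centring, quantile normalization, array weights, a robust fit with an intensity trend, removal of dim probe sets, the poly-A spike-in covariate, other thresholds, and leaving out each array. The number of arrays limits the precision.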

Additional observations from a re-analysis of the deposited data

Results flagged for a closer look

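Prelid2 had 1 high array apart from the rest: high replicate 2 was at 9.35, and the other high arrays were at 9.10, 9.09 and 9.11. Its gap to the other high arrays, divided by the range of all 4, exceeded Dixon's 95% critical value for 4 samples. Of 64 groups of 4 arrays examined, this was the only one to do so, and chance alone gives about 1 in 20. Prelid2 kept its call without that array.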

How the results depend on the processing

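Crls1 and Ptpmt1 kept a positive sign in every alternative run, and were called in all of them except the spike-in covariate, a threshold of 0.01 and the omissions named above. The members called higher were 4 with dim probe sets left out, with an intensity trend and robust fit and with array weights (Pgs1 and Lclat1 joining in each). The calls over all probe sets rose in these fits too, from 1173 of 22206 to 1372 of 16530, 1950 of 22206 and 1672 of 22206 higher. Members called higher were 4 at a threshold of 0.1, 0 at 0.01 and 0 with the spike-in covariate, and 0 to 4 on leaving out 1 array. The other phospholipid genes were 3 to 12 higher and 1 to 2 lower on leaving out 1 array, 2 and 0 at a threshold of 0.01, and 0 and 0 with the spike-in covariate. Over all probe sets the counts were 183 (without high replicate 2) to 1680 (without low replicate 3) higher and 218 (without high replicate 3) to 793 (without low replicate 3) lower on leaving out 1 array, 73 and 113 at 0.01, 2061 and 1174 at 0.1, and 0 and 0 with the covariate, and an intensity trend gave 1950 higher. The cause of these moves was not tested. Signs turned for Gatc (-0.047) and Dnase1l1 (-0.052) with the covariate, and on leaving out 1 array for Rab24 (-0.047 to 0.016) and Pisd (-0.096 to 0.053). Each member has 1 probe set, so averaging probe sets changes nothing.

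With the replicate number as a block, 3 members were called higher, Lclat1 among them (adjusted p = 0.0379), and 1 other phospholipid gene was lower, Vps13c, with Lpin1 no longer called (adjusted p = 0.0564). Over all probe sets this fit called 1225 higher and 650 lower. Deviations of same-numbered arrays correlated at 0.27, 0.055, 0.015 and 0.039, and 1 of the 4 high arrays correlated best with its own number. The labels do not say what the number stands for. Low correlations cannot exclude a shared source for same-numbered arrays, and a shared source was not tested.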
